A study of Mus musculus with 30 samples.

Results

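The genes described here encode the enzymes and regulators of sterol and fatty acid synthesis. They are 32 genes of 36528 measured, 23 in a sterol branch and 9 in a fatty acid branch, chosen as a list of symbols, and all 32 were found in the count data. RNA was sequenced from brain cells sorted into 3 populations, neurons (NeuN+), astrocytes (Gfap+) and myeloid cells (Cd11b+), of PS2APP transgenic mice and of their non-transgenic littermates, here called non-Tg. All animals were 11.5 months old. Each of the 6 groups had 5 libraries, 30 in all. The PS2APP line models amyloid deposition through transgenes for mutant forms of human amyloid precursor protein and presenilin 2. The promoters that drive the transgenes, the number of animals behind a library and which libraries share an animal were not stated, so p-values measure the spread between libraries.

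Cholesterol is built from acetyl-CoA through mevalonate, squalene and lanosterol, and fatty acids are built from the same acetyl-CoA by carboxylation, chain synthesis, elongation and desaturation. The transcription factors SREBP, encoded by Srebf1 and Srebf2, switch on both branches. Scap escorts them out of the endoplasmic reticulum when sterol is low, and the Insig proteins hold Scap back when sterol is high. In the adult brain, cholesterol is made locally because lipoproteins do not cross the blood-brain barrier, and astrocytes are known as a source of it for neurons.

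Total counts per library lay between 2015535 and 6749681, and 3 counts corresponded to 0.444 to 1.49 CPM, the count scaled to library size. Summed over marker lists, each sorted population was highest in the markers of its own cell type: astrocyte markers summed to 10641 to 18235 CPM in the astrocytes of non-Tg mice, against 569 to 1088 CPM in the myeloid cells and 585 to 687 CPM in the neurons of the same genotype. No marker gene totalled 0 in any group. Oligodendrocytes are also known to make cholesterol, and their 10 markers averaged 1015 ± 194 CPM (SD, n = 5) in astrocytes of non-Tg mice, 880 ± 190 CPM in their myeloid cells and 196 ± 42.2 CPM in their neurons. The 4 markers of oligodendrocyte precursors averaged 246 ± 52.2, 38.9 ± 6.67 and 67.8 ± 10.3 CPM in the same order. The part of these other cells in the levels that follow was not tested. In sorted bulk samples, fewer expressing cells and less RNA per cell cannot be told apart.

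Promoter windows were available for 25 of the 32 genes, as 33 windows of 300 bases, each reaching from 250 bases before to 50 bases after a transcription start. The windows came from RefSeq on GRCm38.p6. They were searched on both strands for 4 short motifs: TCACNCCAC, a form of the sterol regulatory element that SREBP binds, CACGTG, an E-box, CCAAT, the CCAAT box, and GGGCGG, the GC box. The windows shown were chosen for Hmgcs1, the only window with the first motif, for Insig1, the sterol branch gene with the smallest p in PS2APP astrocytes, and for Fads2, the gene with the largest astrocyte excess. Capitals mark the matches, which do not overlap one another, and each window reads 5′ to 3′ on the strand of its gene. They lie at chr13:119690101-119690400 on the + strand, chr5:28071162-28071461 on the + strand and chr19:10101454-10101753 on the - strand.
Hmgcs1: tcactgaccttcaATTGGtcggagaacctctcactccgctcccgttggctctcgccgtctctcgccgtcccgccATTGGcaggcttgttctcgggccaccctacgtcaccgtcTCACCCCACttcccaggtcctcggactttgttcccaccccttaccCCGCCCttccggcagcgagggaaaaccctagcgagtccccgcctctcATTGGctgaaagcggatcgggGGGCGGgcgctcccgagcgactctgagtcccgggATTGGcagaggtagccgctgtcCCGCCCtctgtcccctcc
Insig1: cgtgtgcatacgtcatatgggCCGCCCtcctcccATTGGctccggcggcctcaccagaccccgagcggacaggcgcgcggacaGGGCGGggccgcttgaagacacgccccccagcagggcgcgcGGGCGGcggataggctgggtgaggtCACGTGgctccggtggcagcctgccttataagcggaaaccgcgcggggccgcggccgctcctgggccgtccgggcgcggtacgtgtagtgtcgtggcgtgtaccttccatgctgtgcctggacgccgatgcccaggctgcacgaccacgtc
Fads2: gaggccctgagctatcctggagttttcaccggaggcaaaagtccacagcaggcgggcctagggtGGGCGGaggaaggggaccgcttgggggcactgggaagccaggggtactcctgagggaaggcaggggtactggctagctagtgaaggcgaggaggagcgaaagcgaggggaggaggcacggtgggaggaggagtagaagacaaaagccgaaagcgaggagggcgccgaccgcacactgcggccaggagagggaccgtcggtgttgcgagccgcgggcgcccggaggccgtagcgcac
The Hmgcs1 window held 8 matches, the Insig1 window 5 and the Fads2 window 1. The CCAAT box was found in 21 of the 33 windows (63.6%) and in 37.4% of all 32851 promoter windows. The GC box was found in 25 of the 33 (75.8%) and in 35.7% of all windows. The E-box was found in 6 of the 33 (18.2%), in Dhcr7, Hsd17b7, Insig1, Sc5d and Scap, and in 7.15% of all windows. The sterol element was found in 1 window (3.03%), against 1.24% of all. A match describes these letters only.

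The first comparison set the 3 populations of non-transgenic mice against each other. Both branches were highest in astrocytes. By mean level, astrocytes ranked first for 21 of 23 sterol genes and for 8 of 9 fatty acid genes. Ebp, a sterol isomerase, and Acly, which makes cytosolic acetyl-CoA from citrate, were highest in myeloid cells, and Acat2, the acetoacetyl-CoA thiolase at the head of the mevalonate pathway, had its highest mean in neurons. With edgeR's quasi-likelihood test and Benjamini-Hochberg adjustment over all genes, 17 of 22 sterol genes tested and 8 of 9 fatty acid genes were higher in astrocytes than in myeloid cells at adjusted p below 0.05, where 32.8% of all genes tested were higher. In the other direction, Ebp and Acly were lower, against 28.3% of all genes. Over neurons, 15 of 22 sterol genes and 8 of 9 fatty acid genes were higher in astrocytes, against 26.4% of all genes, and none was lower, against 29.1%. The median log2 fold change of astrocytes over myeloid cells was 1.96 for the sterol branch and 2.55 for the fatty acid branch, beside 0.11 for all genes. Over neurons it was 0.87 and 2.14, beside -0.08. Myeloid cells were lower than neurons in 10 sterol and 3 fatty acid genes, against 36.8% of all genes, and higher in 3 and 4, against 33.2%. These 3 contrasts share libraries.

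**Figure D1:**
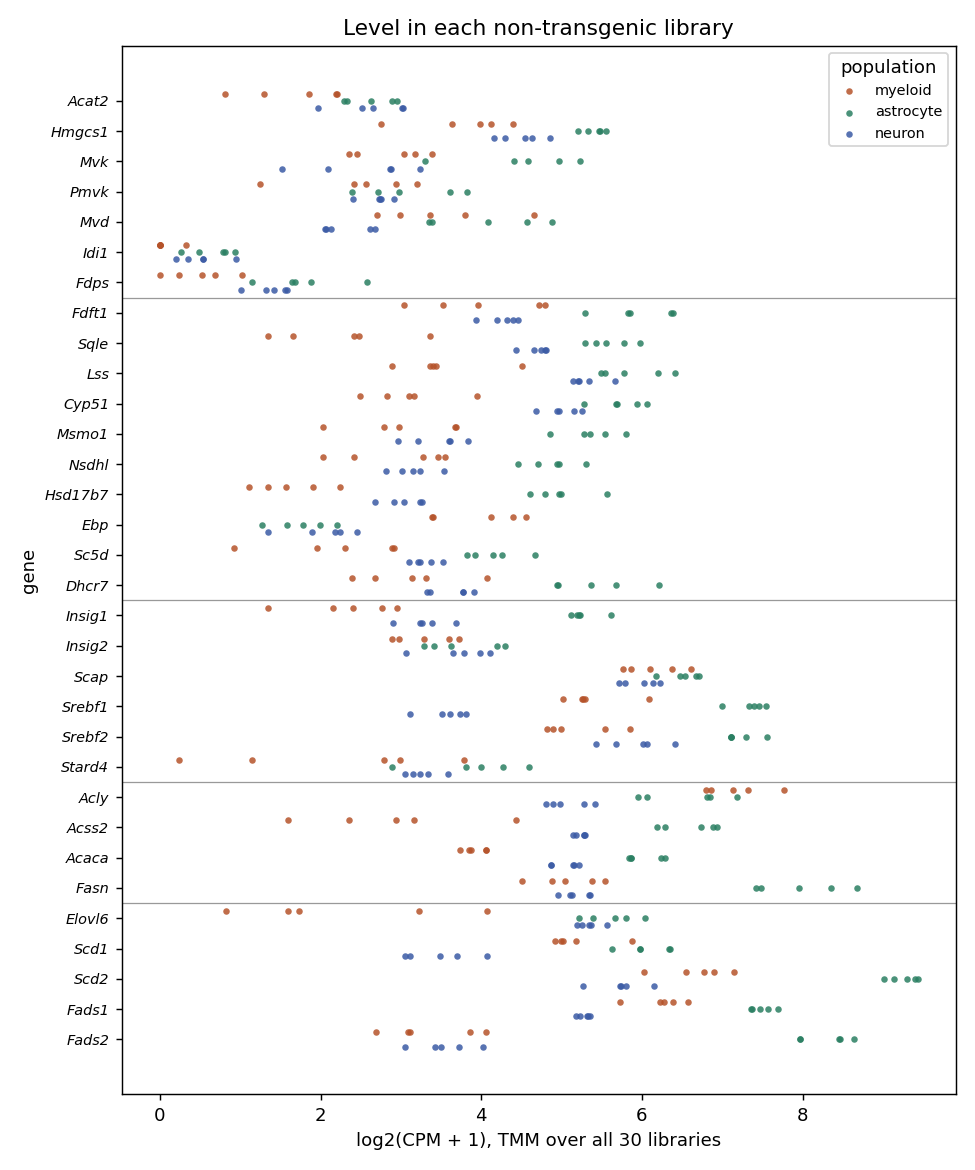
Level of the 32 genes in each of the 15 non-transgenic libraries, as log2(CPM + 1) with scaling over all 30 libraries. Each point is a library, colours are populations, and horizontal lines part the groups of steps. By mean, astrocytes are highest for all genes but Ebp, Acly and Acat2. For several genes, among them Lss, Mvk, Scap and Scd1, astrocyte points overlap those of another population.

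Among the enzymes that turn squalene into cholesterol, Hsd17b7, a ketosteroid reductase, was at 23.3, 30.9, 26.8, 46.2 and 30.2 CPM in the 5 non-Tg astrocyte libraries, at 1.54, 3.75, 1.16, 2.74 and 1.96 CPM in the myeloid libraries and at 8.47, 7.20, 6.56, 8.58 and 5.42 CPM in the neuron libraries. No value of 1 population overlapped another. Its log2 fold change was 3.76 ± 0.31 (SE) over myeloid cells and 2.02 ± 0.28 over neurons. Sqle, squalene epoxidase, was at 53.7, 61.9, 42.1, 38.3 and 45.9 CPM in astrocytes, at 1.54, 2.14, 9.27, 4.57 and 4.35 CPM in myeloid cells and at 26.7, 24.3, 20.6, 26.9 and 25.9 CPM in neurons, again without overlap. The log2 fold change was 3.50 ± 0.33 for astrocytes over myeloid cells and -2.64 ± 0.32 for myeloid cells over neurons. Cyp51, the lanosterol demethylase, was at 38.0, 60.2, 50.3, 65.8 and 50.7 CPM in astrocytes, at 7.97, 6.07, 4.63, 14.5 and 7.62 CPM in myeloid cells and at 24.6, 29.7, 37.3, 34.6 and 30.2 CPM in neurons. It was lower in myeloid cells than in neurons by a log2 fold change of -2.02 ± 0.26. Ebp was at 9.51, 22.5, 20.0, 16.5 and 9.57 CPM in myeloid cells and at no more than 3.62 CPM in astrocytes and 4.50 CPM in neurons. Its log2 fold change for astrocytes over myeloid cells was -2.63 ± 0.38.

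Of the 6 mevalonate enzymes tested, 4 were higher in astrocytes than in myeloid cells and 3 higher than in neurons, with median log2 fold changes of 1.37 and 0.72. Of the 10 squalene and sterol enzymes, 9 and 8 were higher, with medians of 2.398 and 1.28, and the difference between these groups of steps was not tested. Mvk, the mevalonate kinase, was higher in astrocytes by 1.84 ± 0.40 over myeloid cells and 2.08 ± 0.40 over neurons, and Mvd, the decarboxylase, by 2.00 ± 0.41 over neurons. Hmgcs1, the HMG-CoA synthase, was at 43.2, 45.9, 36.0, 43.5 and 39.1 CPM in astrocytes, at 16.5, 5.71, 14.8, 11.4 and 20.0 CPM in myeloid cells and at 16.8, 23.8, 18.6, 27.8 and 22.4 CPM in neurons. Astrocytes stood apart and the other populations overlapped. Pmvk, a kinase of the pathway, passed the test in none of the 3 contrasts. Idi1, an isomerase, had non-Tg means of at most 0.07 RPKM and lay below the count filter in every comparison, and Fdps, the farnesyl diphosphate synthase, had means of at most 0.56 RPKM, with a log2 fold change of 2.50 ± 0.60 for astrocytes over myeloid cells (adjusted p = 0.001, edgeR). Only reads that aligned to a single place were counted, and whether near-identical copies took reads of Idi1 or Fdps was not tested.

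Of the regulators, Srebf1 had the largest difference between astrocytes and neurons. It was at 185, 175, 127, 167 and 161 CPM in astrocytes, at 37.5, 67.1, 31.3, 37.0 and 38.3 CPM in myeloid cells and at 11.3, 12.4, 7.69, 13.1 and 10.4 CPM in neurons. The groups did not overlap, and the log2 fold change was 3.79 ± 0.22 for astrocytes over neurons and 1.83 ± 0.21 for myeloid cells over neurons. Srebf2 was also highest in astrocytes, by 2.00 ± 0.22 over myeloid cells and 1.202 ± 0.22 over neurons on the log2 scale. Insig1 was at 33.8, 36.1, 35.7, 47.8 and 36.5 CPM in astrocytes, at 1.54, 4.29, 3.47, 5.79 and 6.75 CPM in myeloid cells and at 6.47, 8.44, 8.63, 11.9 and 9.49 CPM in neurons. Astrocytes stood far above the others, which overlapped at their edges. On the log2 scale the difference was 3.09 ± 0.30 over myeloid cells and 1.98 ± 0.27 over neurons. Scap was higher in astrocytes than in neurons by 0.45 ± 0.18 (adjusted p = 0.044, edgeR), and Insig2 differed by -0.04 ± 0.29. Between astrocytes and myeloid cells Scap differed by 0.36 ± 0.18 (adjusted p = 0.093) and Insig2 by 0.54 ± 0.30 (adjusted p = 0.13).

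In the fatty acid branch Fads2 had the largest astrocyte difference in both contrasts. This gene, which desaturates polyunsaturated fatty acids, was at 354, 396, 248, 348 and 250 CPM in astrocytes, at 15.7, 7.68, 7.53, 13.6 and 5.44 CPM in myeloid cells and at 15.3, 10.4, 7.32, 9.78 and 12.2 CPM in neurons. The difference was 5.00 ± 0.28 over myeloid cells and 4.76 ± 0.27 over neurons, and myeloid cells and neurons overlapped. Scd2, the stearoyl-CoA desaturase of brain, was at 517, 562, 689, 672 and 630 CPM in astrocytes, at 64.2, 92.7, 109, 118 and 140 CPM in myeloid cells and at 37.4, 52.5, 51.8, 70.1 and 54.8 CPM in neurons. Astrocytes were higher by 2.55 ± 0.19 over myeloid cells and 3.42 ± 0.20 over neurons. Fads1, the partner of Fads2, was at 163, 176, 189, 206 and 164 CPM in astrocytes, at 52.2, 94.3, 82.8, 73.8 and 76.4 CPM in myeloid cells and at 39.9, 38.9, 36.4, 39.3 and 35.4 CPM in neurons. It was higher in astrocytes than in neurons by 2.14 ± 0.16 on the log2 scale. Per transcript length, in the deposited RPKM, Fads2 at 66.1 ± 13.8 (SD, n = 5) and Scd2 at 35.1 ± 4.2 were the highest of the 32 genes in non-Tg astrocytes.

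Of the enzymes that supply and build the chain, Acly was at 158, 216, 110, 140 and 115 CPM in myeloid cells, at 114, 144, 60.6, 111 and 65.9 CPM in astrocytes and at 37.9, 30.6, 27.0, 28.7 and 41.7 CPM in neurons. Myeloid cells and astrocytes overlapped, and the difference of -0.56 ± 0.23 between them passed the test (adjusted p = 0.04, edgeR), while myeloid cells exceeded neurons by 2.05 ± 0.24. Acaca, the acetyl-CoA carboxylase, was at 57.1, 77.4, 56.4, 74.2 and 57.5 CPM in astrocytes, at 13.4, 12.3, 15.6, 13.7 and 15.7 CPM in myeloid cells and at 34.5, 28.1, 28.1, 34.3 and 36.2 CPM in neurons, without overlap between populations. It was higher in astrocytes than in myeloid cells by 2.20 ± 0.18 and lower in myeloid cells than in neurons by a log2 fold change of -1.30 ± 0.18. Scd1, another stearoyl-CoA desaturase, was at 61.9, 61.9, 80.8, 80.0 and 48.5 CPM in astrocytes, at 31.4, 30.9, 35.3, 29.3 and 57.7 CPM in myeloid cells and at 10.2, 7.65, 12, 15.8 and 7.32 CPM in neurons. It was higher in myeloid cells than in neurons by 1.70 ± 0.25. Elovl6, an elongase, passed the test between astrocytes and myeloid cells (3.04 ± 0.44) but not between astrocytes and neurons (0.21 ± 0.39, adjusted p = 0.67).

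The same contrasts were made in PS2APP libraries. Of the 27 genes called between astrocytes and myeloid cells, 23 were called in the same direction in PS2APP libraries and 26 had the same sign. Between astrocytes and neurons these counts were 16 and 22 of 23, and between myeloid cells and neurons 14 and 18 of 20. Over all genes called in non-Tg libraries, 64.6%, 68.7% and 73.5% were called again in the same direction in these 3 contrasts.

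**Figure D2:**
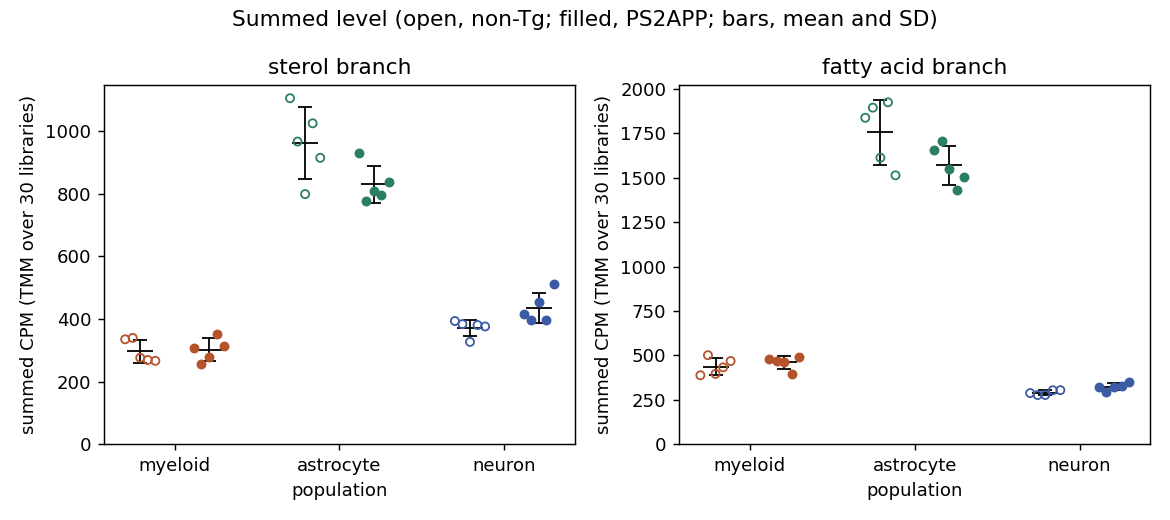
Summed CPM of the 23 sterol and the 9 fatty acid genes in each library, with the mean and SD of the 5 libraries of a group. Astrocyte libraries lie above all others in both branches, and the 2 genotypes overlap within astrocytes.

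Summed over the sterol genes, non-Tg astrocytes reached 961 ± 115 CPM (SD, n = 5) and PS2APP astrocytes 829 ± 60.1 CPM. The sums were 297 ± 36.8 and 301 ± 36.2 CPM in myeloid cells and 372 ± 26.1 and 435 ± 47.8 CPM in neurons, non-Tg first. In neurons every PS2APP library was above every non-Tg library on this scale, while with scaling within neurons the lowest PS2APP sum, 469.8 CPM, lay below the highest non-Tg sum, 470.1 CPM. The regulators Scap and Srebf2 had the highest means of the branch in neurons of both genotypes. Scap averaged 62.6 and 93.2 CPM, with a PS2APP maximum of 157 CPM, and Srebf2 61.1 and 83.7 CPM, non-Tg first. Of the 22 sterol genes tested in neurons, 12 had a positive and 10 a negative log2 fold change. For the fatty acid genes the sums were 1757 ± 183 and 1571 ± 110 CPM in astrocytes, 437 ± 48.0 and 460 ± 37.1 CPM in myeloid cells and 290 ± 13.6 and 324 ± 19.0 CPM in neurons. The genotypes overlapped in each of these 3.

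The second comparison asked how PS2APP libraries differed from non-Tg libraries within each population. No gene of the list passed adjusted p below 0.05 in any population with edgeR's quasi-likelihood test. DESeq2 called 3 in myeloid cells (Mvk, Acaca and Fasn, higher), 1 in astrocytes (Insig1, lower) and 2 in neurons (Msmo1, lower, and Fasn, higher). It called more of all genes too, with numbers in the last section, and the edgeR shares are no background for its counts. The edgeR count compares with 3.36% of 12274 genes called in myeloid cells, 0.185% of 14043 in astrocytes and 0.00623% of 16064 in neurons. Low counts left 25 of the 32 genes tested in myeloid cells, 29 in astrocytes and 31 in neurons. The values that follow are therefore descriptions of genes that did not pass the test, given for the smallest p in each branch.

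**Figure D3:**
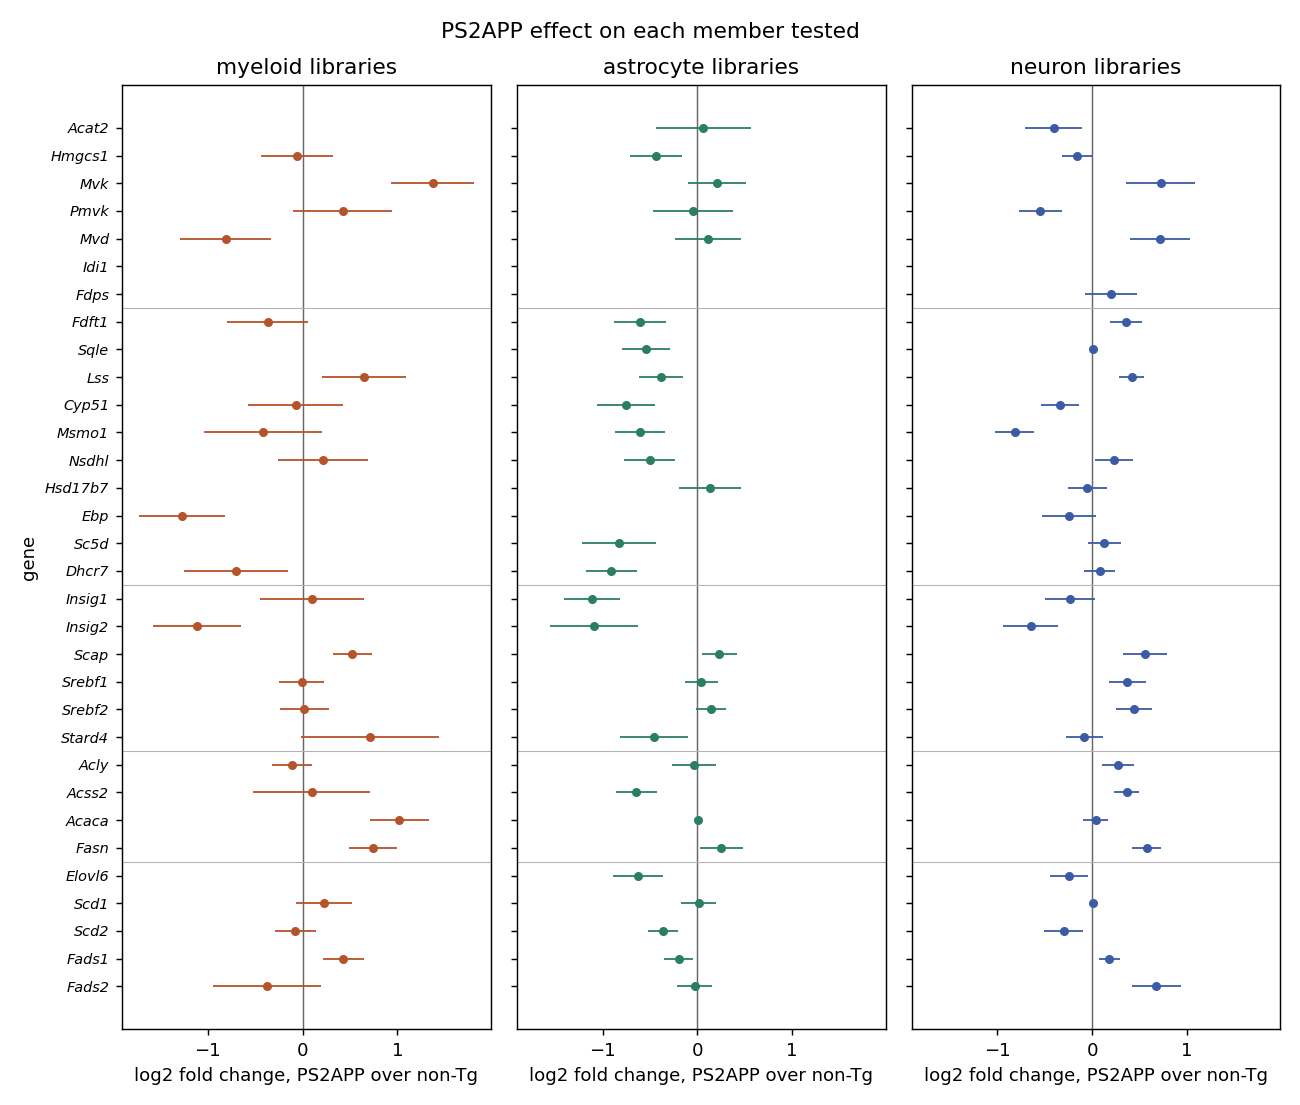
Log2 fold change of PS2APP over non-Tg libraries for each gene tested, with its standard error, in each population. A point at 0 with no bar had a test statistic too small to give a standard error; in astrocytes 8 of the 9 squalene and sterol enzymes lie left of 0, and no point in any panel passed the test.

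In astrocytes most sterol genes had values below 0. Of the 9 enzymes tested from squalene synthase to Dhcr7, a grouping made after the values were seen, 8 had a negative log2 fold change, with a median of -0.60 and a range from -0.91 to 0.13, and 6 had an unadjusted p under 0.05, against 7.00% of all genes on that side. In the branches, 8 sterol and 3 fatty acid genes had one. On the higher side no gene of either branch had one, against 10.2% of all genes. The 5 mevalonate enzymes tested had a median of 0.06. Over the whole sterol branch the median was -0.45, with 7 positive and 13 negative, beside a median of 0.01 for all genes. With 1 library left out the branch median lay between -0.68, without PS2APP replicate 1, and -0.34.

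Insig1 was at 29.2, 31.1, 31.3, 41.6 and 31.6 CPM in non-Tg astrocytes and at 26.3, 9.70, 8.20, 19.5 and 12.4 CPM in PS2APP astrocytes. Every PS2APP library was below every non-Tg library, and the log2 fold change was -1.11 ± 0.30 (adjusted p = 0.12, edgeR). Dhcr7, the reductase of the last step, was at 63.4, 25.8, 26.2, 34.95 and 43.4 CPM in non-Tg and at 22.2, 23.7, 16.1, 16.8 and 24.8 CPM in PS2APP libraries. These groups did not overlap either, with a log2 fold change of -0.91 ± 0.27 (adjusted p = 0.14, edgeR). Cyp51 was at 32.9, 51.9, 44.1, 57.2 and 44.0 CPM in non-Tg and at 42.6, 26.8, 9.11, 20.7 and 38.2 CPM in PS2APP libraries, which overlapped (-0.75 ± 0.31, adjusted p = 0.23, edgeR).

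In the fatty acid branch of astrocytes, Acss2, which makes acetyl-CoA from acetate, was at 91.6, 101, 67.3, 106 and 62.4 CPM in non-Tg and at 66.7, 71.6, 44.4, 39.8 and 52.4 CPM in PS2APP libraries. The groups overlapped, with a log2 fold change of -0.64 ± 0.21 (adjusted p = 0.16, edgeR). Elovl6 was at 47.3, 31.1, 36.1, 56.4 and 43.2 CPM in the non-Tg libraries and 38.5, 13.7, 25.2, 34.3 and 26.5 CPM in the PS2APP libraries, which overlapped (-0.63 ± 0.26, adjusted p = 0.23, edgeR). Scd2 was at 447, 485, 604, 584 and 547 CPM in the non-Tg libraries and 487, 396, 306, 438 and 449 CPM in the PS2APP libraries (-0.36 ± 0.16, adjusted p = 0.26, edgeR), and its groups overlapped. Fasn, the fatty acid synthase, had 0.25 ± 0.22. The branch median was -0.03.

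Other measures moved with genotype in the same astrocyte libraries. The 10 astrocyte markers averaged a sum of 14728 ± 3300 CPM without and 11255 ± 1479 CPM with the transgenes. Singly, 4 of them had a positive and 6 a negative log2 fold change. Non-Tg first, the oligodendrocyte markers spanned 794 to 1231 CPM and 1013 to 2143 CPM, the 11 myeloid markers 42.0 to 78.3 CPM and 82.4 to 161 CPM, and the 12 neuron markers 194 to 338 CPM and 284 to 964 CPM. Mitochondrial genes took 2.41% to 4.74% of counts in non-Tg and 5.598% to 8.60% in PS2APP astrocyte libraries, without overlap. With the markers of other cells as a covariate the log2 fold change was -1.23 for Insig1, -0.72 for Dhcr7 and -0.60 for Cyp51. With the oligodendrocyte markers alone it was -1.31, -0.72 and -0.58. With the mitochondrial share, a covariate added after the data were seen, it was -0.33, -1.19 and 0.34, so the sign of Cyp51 turned. The sign of Scd2 turned too, to 0.10. PS2APP replicate 3 stood apart on the first principal component of the astrocyte libraries, at 111 where the others lay between -43.3 and 45.4. Without it Insig1 had -0.95 and Dhcr7 -0.83. With any 1 library left out, Insig1 lay between -1.40 and -0.95 and Dhcr7 between -1.03 and -0.66.

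**Figure D4:**
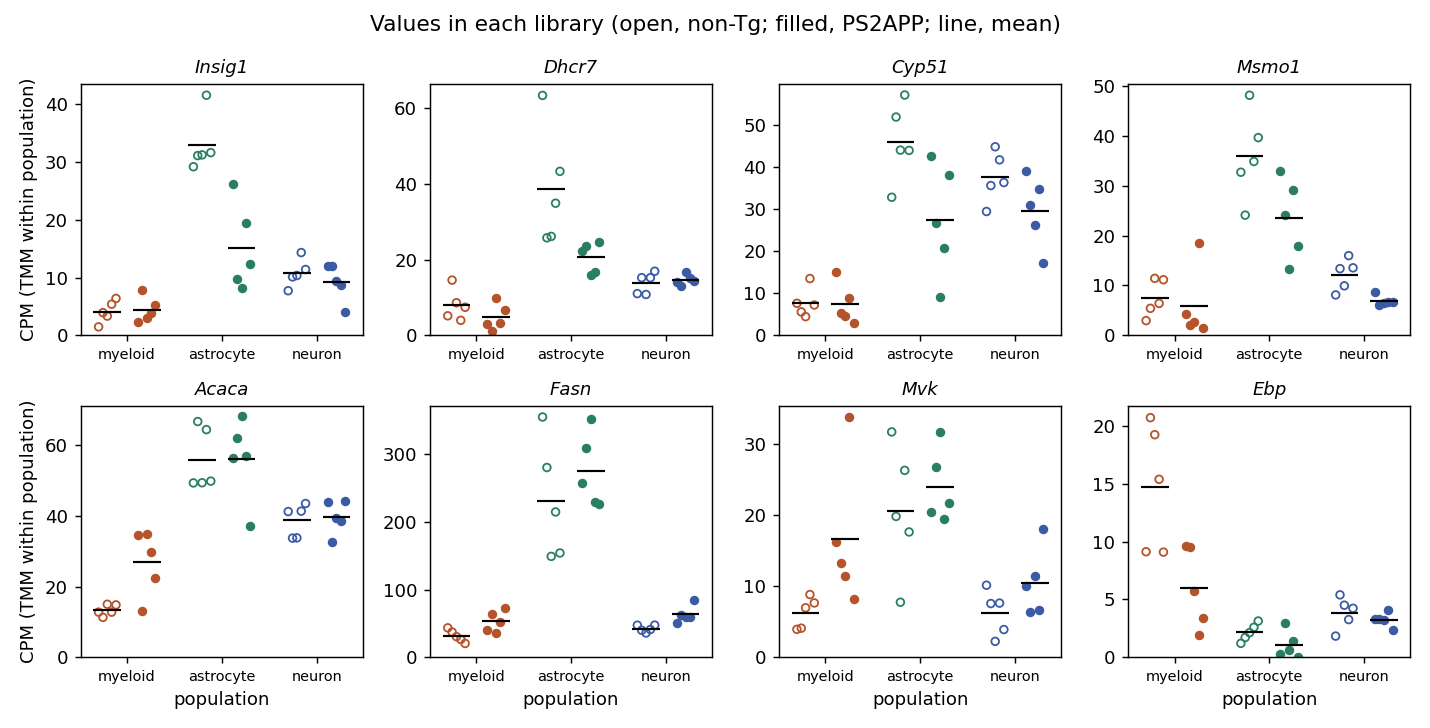
CPM, scaled within a population, of 8 genes in each library, with open points for non-Tg, filled points for PS2APP and a line at the mean. In astrocytes the PS2APP points of Insig1 and Dhcr7 lie below all non-Tg points, and in myeloid cells 4 of 5 PS2APP points of Acaca lie above all non-Tg points.

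In myeloid cells the fatty acid enzymes Acaca and Fasn and the mevalonate kinase Mvk had the smallest p. Acaca was at 12.8, 11.3, 15.04, 12.8 and 14.9 CPM in non-Tg and at 34.7, 13.2, 34.97, 29.9 and 22.5 CPM in PS2APP libraries. One PS2APP library lay within the non-Tg range, and the log2 fold change was 1.02 ± 0.31 (adjusted p = 0.07, edgeR). Without PS2APP replicate 2, which is that library, Acaca passed the test (1.201, adjusted p = 0.033, edgeR). Fasn was at 43.6, 37.5, 30.7, 26.6 and 20.7 CPM in non-Tg and at 39.7, 64.5, 36.5, 51.6 and 73.1 CPM in PS2APP libraries, which overlapped (0.74 ± 0.25, adjusted p = 0.11, edgeR). Mvk was at 3.94, 4.11, 6.97, 8.82 and 7.64 CPM in non-Tg and at 16.2, 13.2, 11.4, 33.7 and 8.25 CPM in PS2APP libraries, which overlapped in 1 library (1.37 ± 0.44, adjusted p = 0.082, edgeR).

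Ebp was at 9.12, 20.7, 19.2, 15.4 and 9.09 CPM in non-Tg and at 9.64, 9.51, 5.70, 1.91 and 3.37 CPM in PS2APP myeloid libraries. The groups overlapped, with a log2 fold change of -1.27 ± 0.46 (adjusted p = 0.12, edgeR). Fads1 was at 50.04, 86.7, 79.7, 68.9 and 72.5 CPM in the non-Tg libraries and 79.1, 77.2, 107, 153 and 69.0 CPM in the PS2APP libraries, which overlapped (0.43 ± 0.22, adjusted p = 0.27, edgeR). The sterol branch had a median of -0.01, with 8 positive and 9 negative, and the fatty acid branch 0.16, with 5 positive and 3 negative. Unadjusted p was under 0.05 for 2 sterol and 2 fatty acid genes on the higher side, against 10.1% of all genes, and for 2 sterol genes on the lower side, against 9.30%. The myeloid markers of these libraries averaged a sum of 10597 ± 674 CPM without and 8133 ± 1143 CPM with the transgenes. The oligodendrocyte markers averaged a sum of 880 ± 190 and 1327 ± 267 CPM, non-Tg first. Of the 7 oligodendrocyte markers tested, 3 had a positive and 4 a negative log2 fold change, with a median of -0.04 and a maximum of 0.90. Of these markers 2 passed the test as higher and 0 as lower (lowest adjusted p = 0.019, edgeR). In either direction 3.36% of all genes passed. Mitochondrial genes took 5.46% to 12.7% of counts in non-Tg myeloid libraries and 9.46% to 16.7% in PS2APP ones. Depth differed without overlap, with total counts of 3578249 to 6143018 in non-Tg and 2015535 to 2908222 in PS2APP myeloid libraries. Genes detected were 19608 to 20797 and 17097 to 19061, non-Tg first, also without overlap. The part of depth in the myeloid values, many from low counts, was not tested. PS2APP replicate 4, which had the highest Mvk, stood apart on the first principal component, at 97.2 where the others lay between -34.1 and 14.3. Without it the log2 fold change was 0.96 for Mvk and 0.22 for Fads1. Leaving out 1 library moved the fatty acid median between -0.06, without non-Tg replicate 3, and 0.44, without non-Tg replicate 5. With the mitochondrial share as covariate the branch medians were -0.14 and 0.13, sterol first.

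In neurons, Msmo1, the methylsterol oxidase, was at 8.10, 13.4, 9.92, 16.0 and 13.5 CPM in non-Tg and at 8.68, 6.12, 6.46, 6.71 and 6.78 CPM in PS2APP libraries. One PS2APP library lay within the non-Tg range, and the log2 fold change was -0.82 ± 0.21 (adjusted p = 0.19, edgeR). Lss, the lanosterol synthase, was at 59.3, 47.4, 41.3, 43.6 and 43.1 CPM in non-Tg and at 61.0, 63.8, 58.9, 56.8 and 72.6 CPM in PS2APP libraries, which overlapped (0.42 ± 0.13, adjusted p = 0.19, edgeR). Fasn was at 47.5, 40.1, 36.1, 41.2 and 47.6 CPM in non-Tg and at 50.2, 62.4, 59.3, 59.9 and 84.97 CPM in PS2APP libraries. Every PS2APP library was above every non-Tg library, with a log2 fold change of 0.58 ± 0.15 (adjusted p = 0.19, edgeR). Acss2 was at 45.1, 42.1, 46.0, 41.4 and 45.5 CPM in the non-Tg libraries and 54.9, 43.3, 54.1, 60.4 and 69.8 CPM in the PS2APP libraries, which overlapped (0.36 ± 0.13, adjusted p = 0.19, edgeR). Fads2 was at 18.2, 12.4, 8.79, 11.8 and 14.7 CPM in the non-Tg libraries and 14.8, 14.8, 26.2, 16.0 and 33.7 CPM in the PS2APP libraries, also with overlap (0.68 ± 0.26, adjusted p = 0.19, edgeR). The sterol branch had a median of 0.04, with 12 positive and 10 negative, and the fatty acid branch 0.18, with 7 positive and 2 negative. Unadjusted p was under 0.05 for 4 sterol and 3 fatty acid genes on the higher side, against 12.2% of all genes, and for 3 sterol genes on the lower side, against 10.6%. PS2APP replicates 5 and 3, which had the highest Fads2 and Scap, were also highest on the first principal component of the neuron libraries. They were at 89.8 and 48.2, where the others lay between -54.7, non-Tg replicate 3, and 15.8. Without replicate 5 the log2 fold change was 0.45 for Fads2. The oligodendrocyte markers averaged 196 ± 42.2 and 254 ± 36.4 CPM, non-Tg first, and mitochondrial genes took 0.669% to 1.55% and 1.29% to 1.98% of counts. With the oligodendrocyte markers as covariate the branch medians were 0.03 and 0.16, sterol first, and with the mitochondrial share -0.0061 and 0.16.

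The regulators did not pass the test in any population. Scap was at 93.2, 75.2, 64.9, 53.5 and 50.8 CPM in non-Tg and at 109, 72.9, 75.3, 117 and 111 CPM in PS2APP myeloid libraries, which overlapped (0.52 ± 0.20, adjusted p = 0.16, edgeR). In astrocytes Scap was at 87.6, 89.8, 62.5, 80.0 and 76.5 CPM in the non-Tg libraries and 76.7, 86.3, 132, 86.4 and 84.8 CPM in the PS2APP libraries (0.23 ± 0.19), and in neurons at 88.6, 83.0, 61.8, 65.7 and 77.0 CPM in the non-Tg libraries and 73.0, 81.5, 123, 90.5 and 186 CPM in the PS2APP libraries (0.56 ± 0.23). Both overlapped. Without PS2APP replicate 3 the astrocyte value was 0.076, and without non-Tg replicate 3 it was 0.14. Without PS2APP replicate 5 the neuron value was 0.29. Srebf1 was at 36.0, 61.8, 30.1, 34.6 and 36.4 CPM in non-Tg and at 37.0, 39.6, 32.3, 41.4 and 47.6 CPM in PS2APP myeloid libraries. In astrocytes Srebf1 was at 160, 151, 111, 145 and 140 CPM in non-Tg and at 137, 106, 187, 169 and 130 CPM in PS2APP libraries, and both pairs of groups overlapped. In neurons Srebf1 was at 13.4, 14.8, 9.24, 15.8 and 12.6 CPM in the non-Tg libraries and 12.7, 18.1, 15.6, 16.0 and 23.1 CPM in the PS2APP libraries, with overlap (0.37 ± 0.19, and 0.24 without PS2APP replicate 5).

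Srebf2 was at 54.5, 42.0, 29.8, 25.5 and 27.3 CPM in the non-Tg libraries and 42.4, 37.0, 39.9, 38.2 and 23.99 CPM in the PS2APP libraries in myeloid cells, with a log2 fold change of 0.02 ± 0.26. In astrocytes it was at 162, 118, 119.7, 136 and 119 CPM in the non-Tg libraries and 145, 159.5, 149.5, 117 and 152 CPM in the PS2APP libraries (0.14 ± 0.16, and 0.23 without non-Tg replicate 1). In neurons it was at 101, 76.1, 50.7, 60.6 and 78.9 CPM in the non-Tg libraries and 89.1, 78.7, 106, 87.7 and 136 CPM in the PS2APP libraries (0.44 ± 0.19). All 3 pairs of groups overlapped. Insig1, described above for astrocytes, was at 1.48, 3.94, 3.34, 5.41 and 6.40 CPM in the non-Tg libraries and 2.31, 7.93, 3.04, 3.82 and 5.25 CPM in the PS2APP libraries in myeloid cells (0.10 ± 0.55). In neurons Insig1 was at 7.74, 10.1, 10.4, 14.3 and 11.4 CPM in the non-Tg libraries and 11.96, 12.01, 9.50, 8.67 and 3.99 CPM in the PS2APP libraries (-0.24 ± 0.26), and both overlapped. The neuron value was -0.044 without PS2APP replicate 5 and -0.11 without non-Tg replicate 4.

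Insig2, the second Insig gene, had a negative log2 fold change in each population. It was at 8.38, 5.91, 11.7, 6.40 and 10.5 CPM in non-Tg myeloid libraries, from 34 to 51 counts per library. In PS2APP myeloid libraries it was at 5.02, 4.23, 3.80, 3.18 and 3.37 CPM, from only 5 to 13 counts per library. The groups did not overlap (-1.11 ± 0.47, adjusted p = 0.19, edgeR). In astrocytes Insig2 was at 8.34, 7.57, 16.3, 15.1 and 9.85 CPM in non-Tg and at 2.50, 2.68, 3.95, 13.2 and 3.45 CPM in PS2APP libraries, where 1 PS2APP library lay within the non-Tg range (-1.09 ± 0.46, adjusted p = 0.24, edgeR). With 1 library left out the log2 fold change in astrocytes lay between -1.85, without that library (PS2APP replicate 4), and -0.92. In neurons Insig2 was at 8.84, 15.4, 19.6, 17.97 and 13.9 CPM in the non-Tg libraries and 13.6, 10.1, 7.41, 12.9 and 4.19 CPM in the PS2APP libraries, which overlapped (-0.65 ± 0.29, adjusted p = 0.21, edgeR).

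The third comparison set the PS2APP effects of the populations against each other with an interaction term in a fit of all 30 libraries. None of the genes passed with edgeR. Of all 18101 genes, edgeR called 0.757% between myeloid cells and astrocytes, 0.105% between myeloid cells and neurons and 0.0331% between astrocytes and neurons. With DESeq2, 1 gene of the list passed in each of the contrasts of myeloid cells. The edgeR shares are no background for that count, and the DESeq2 shares are not given here. The smallest p was that of Acaca between myeloid cells and astrocytes, a difference in log2 fold change of 0.96 ± 0.30 (adjusted p = 0.13, edgeR). For Insig1 the same difference was 1.12 ± 0.52 (adjusted p = 0.36, edgeR). Between astrocytes and neurons the difference was negative for 18 of 22 sterol genes, with a median of -0.51, and for 9 of 9 fatty acid genes, with a median of -0.36, beside 9825 of 18101 genes and a median of -0.05. No single gene passed there, and the lowest adjusted p was 0.98 (edgeR).

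Genes of the same pathways outside the list were read beside it. Of 17 other sterol synthesis and SREBP genes, 16 were tested in myeloid cells, 17 in astrocytes and 17 in neurons. Of these 0 passed in any population, with medians of -0.27 in myeloid cells, -0.19 in astrocytes and -0.04 in neurons. Of 26 other fatty acid synthesis genes, 20, 26 and 25 were tested in the same order and 0 passed, with medians of -0.08, -0.15 and -0.25. Of 14 cholesterol turnover genes, 12, 13 and 12 were tested and 0 passed. Among 16 fatty acid oxidation genes tested in myeloid cells, 1 passed, where 3.36% of all genes did: Cpt1a, which admits fatty acids to the mitochondrion, fell in PS2APP myeloid cells by a log2 fold change of -1.12 ± 0.30 (adjusted p = 0.044, edgeR). In non-Tg mice, 6 of 17 other sterol genes and 15 of 26 other fatty acid genes were higher in astrocytes than in myeloid cells, against 32.8% of all genes, and 5 and 7 were lower, against 28.3%. Over neurons, 7 and 14 of these were higher, against 26.4% of all genes, and 2 and 6 lower, against 29.1%. Astrocytes also exceeded neurons in 13 of 18 fatty acid oxidation genes and 8 of 13 cholesterol turnover genes tested, with medians of 1.44 and 1.43, and were lower in 1 and 3.

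Correlations between genes of a branch across libraries were weak. After group means were removed, the median Pearson correlation over pairs of genes in astrocytes was 0.21 for the sterol branch and 0.222 for the fatty acid branch over 10 libraries, beside -0.001 for all genes. It was -0.0317 and -0.107 in myeloid cells and 0.0847 and 0.218 in neurons. The pairs share libraries and depth.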

How the data were processed

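The authors aligned reads with GSNAP to GRCm38, per the submitters' processing notes; their versions, the annotation and the strand setting were not stated. The deposited files give, per the file headers, a count of uniquely aligned reads per Entrez gene and a size-factor-adjusted RPKM, which was used for levels between genes. Symbols for 31049 of 36528 IDs came from RefSeq GRCm38.p6. Counts were tested with edgeR 4.0.16 (R 4.3.3; filterByExpr, minimum count 10 and minimum total 15, TMM, quasi-likelihood, Benjamini-Hochberg over all genes tested). Populations were fitted separately for the PS2APP effect, the 15 non-Tg libraries together for levels, and all 30 for interactions. CPM were scaled over 30 libraries for levels between populations and within a population for genotype. DESeq2 1.42.0, other scalings, filters and covariates and leaving out each library were alternatives. The scripts were tested on simulated data. Members and lists were chosen with earlier results of these data known, and the grouping by pathway step, the motifs and the promoter windows shown after the values were seen. Values in each library are given for the regulators and, in each contrast, the 3 smallest p per branch. Replicate numbers follow accession order and only name libraries.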

Additional observations from a re-analysis of the deposited data

Results flagged for a closer look

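In 12 of 204 groups of 5 libraries, 1 library stood apart from the other 4 by Dixon's test at its 95% critical value, and chance flags about 1 in 20. In astrocytes, Hmgcs1 was at 52.26 CPM in PS2APP replicate 1 and at most 21.7 CPM in the others, Insig1 at 41.58 CPM in non-Tg replicate 4, Insig2 at 13.21 CPM in PS2APP replicate 4 and Scap at 132.2 CPM in PS2APP replicate 3. In myeloid cells, Lss was at 20.95 CPM and Idi1 at 0.2465 CPM in non-Tg replicate 1, Srebf1 at 61.76 CPM in non-Tg replicate 2 and Scd1 at 54.74 CPM in non-Tg replicate 5. The Idi1 value was 1 count, against 0 counts in the other non-Tg myeloid libraries. Idi1 was at 0 counts in every PS2APP myeloid library, a group counted in the 204 that could not be flagged. Fdft1 was at 24.36 CPM in PS2APP myeloid replicate 5 and Msmo1 at 18.46 CPM in PS2APP myeloid replicate 4. In neurons, Msmo1 was at 8.679 CPM in PS2APP replicate 1, and the sterol genes summed to 392.5 CPM in non-Tg replicate 3, below the 452.2 to 470.1 CPM of the others.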

How the results depend on the processing

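The calls between populations stayed within 1.5 times of their count under each alternative run, with 25 to 28, 20 to 24 and 20 to 21 genes called when 1 library was left out. For the PS2APP effect, where no gene was called, DESeq2 called 3 genes in myeloid cells (Mvk, Acaca and Fasn, among 899 of all genes), 1 in astrocytes (Insig1, among 327) and 2 in neurons (Msmo1 and Fasn, among 153). It was run on the 12274, 14043 and 16064 genes that passed the count filter, in the same order. It also called 1 gene each in the differences of myeloid cells from astrocytes and from neurons, for which its number over all genes is not given here. Without a filter on low counts 2 genes were called in astrocytes (Insig1 and Dhcr7, among 514). One fit of all 30 libraries and the other-cell markers as covariate each called 1 in myeloid cells (Acaca). The numbers over all genes in these 2 fits are not given here. The causes were not tested. Leaving out 1 library gave 0 to 1 calls in myeloid cells, 0 to 1 in astrocytes (Insig1 without PS2APP replicate 1, adjusted p = 0.04995 with edgeR), 0 to 0 in neurons, and 0 to 1 between myeloid cells and astrocytes. Branch medians moved in the fatty acid branch: with 1 library left out from -0.056 to 0.44 in myeloid cells, and in astrocytes to -0.27 with the oligodendrocyte and -0.40 with the mitochondrial covariate, from -0.03. Some signs turned. In myeloid cells, Srebf1 was 0.0074 with RLE scaling, 0.0064 with DESeq2, 0.036, 0.084 and 0.30 with other-cell, oligodendrocyte and mitochondrial covariates, and -0.093 to 0.21 with 1 library left out. Srebf2 was -0.035 without a filter, -0.060 in one fit, -0.043 with the oligodendrocyte covariate, and -0.083 to 0.22 with 1 left out. Insig1 was -0.0083 in one fit, -0.23, -0.37 and -0.14 with the 3 covariates, and -0.19 to 0.30 with 1 left out. In astrocytes Srebf1 was -0.10, -0.094 and -0.12 with the 3 covariates and -0.06 to 0.14 with 1 left out, and with the mitochondrial covariate Cyp51 went from -0.75 to 0.34, Scd2 from -0.36 to 0.10, Srebf2 -0.29 and Scap -0.27. No paired analysis was possible because the labels carry no replicate numbers. Idi1 was below the count filter wherever one was used.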
